A study of Arabidopsis thaliana with 18 samples.

Results

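The transcript levels of 10 floral integrator genes of *Arabidopsis thaliana*, out of 33602 genes in the count table, were followed in 6 genotypes. The genes were taken by name as genes that act with or below the floral repressor *FLC*. They comprise the MADS-box genes *SOC1* (AT2G45660), *FUL* (AT5G60910), *AGL24* (AT4G24540) and *SVP* (AT2G22540), and the florigen gene *TSF* (AT4G20370). The other 5 are *SPL3* (AT2G33810), *SPL4* (AT1G53160), *SPL5* (AT3G15270), *SPL9* (AT2G42200) and *SPL15* (AT3G57920), members of the SQUAMOSA PROMOTER BINDING PROTEIN-LIKE family. RNA was isolated from whole seedlings at an age of 8 days, grown on MS plates at 21 °C with 16 h of light per day after 4 days in the cold and dark, with 3 libraries per genotype and 18 in all. The genotypes were the triple mutant *bdrs*, which combines mutations of *BDR1*, *BDR2* and *BDR3* and for which the labels name no alleles; the mutant *fpa* (allele fpa-7); the single mutants *bdr1* (SALK_142108C), *bdr2* (CS852350) and *bdr3* (SALK_059905); and the wild type (WT). All of them share the Col-0 background, and each mutation is represented by 1 allele. The allele names are those of the labels, and the study's methods name the *bdr2* allele WISCDSLOX352H03 and the *bdr3* allele SALK_059905C. *BDR1* to *BDR3* encode the BORDER proteins, which resemble elongation factors of RNA polymerase II, and *FPA* encodes an RNA-binding protein of the autonomous pathway, in which it promotes flowering. The study asked what the BORDER proteins do in transcription and for the expression of neighbouring genes.

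Flowering begins when signals of day length, age and cold meet at a small set of integrator genes in leaves and shoot apex. *FLC*, a MADS-box repressor, binds *SOC1* and *FT* together with *SVP* and holds them down, and the autonomous pathway lowers *FLC*. *SOC1*, *FUL* and *AGL24* are MADS-box activators of the floral transition, *TSF* is a close relative of the mobile florigen *FT*, and the SPL proteins carry the age signal, since the microRNA miR156 represses them in young plants and declines as plants grow older.

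The miR156 sites are shown because they divide the SPL genes into those under and those outside the age signal. In each line the capitals mark the seed of the microRNA (bases 2 to 8) or, in the sites, the bases that face it. Sequences were read 5′ to 3′ from the RefSeq genome of TAIR10.1 and are written with T.

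miR156a-5p: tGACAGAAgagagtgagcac

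*SPL3* site, chr2:14305878-14305897, plus strand: ttgcttactctcTTCTGTCa

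*SPL4* site, chr1:19807090-19807109, plus strand: ctgctctctctcTTCTGTCa

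*SPL5* site, chr3:5140598-5140617, minus strand: ccgctctctctcTTCTGTCa

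*SPL9* site, chr2:17589066-17589085, plus strand: gtgctctctctcTTCTGTCa

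*SPL15* site, chr3:21444834-21444853, minus strand: gtgctctctctcTTCTGTCa

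All 5 sites had the full complement of the seed. Relative to the complement of the whole microRNA, counted from 1 at the 5′ end of the site, *SPL9* and *SPL15* carried the single change A7T, and their sites lay in the coding sequence. The sites of *SPL3* (G1T C6T), *SPL4* (G1C A7T) and *SPL5* (G1C T2C A7T) lay in the 3′ UTR. The site of *SPL15*, identical to that of *SPL9*, is read again below beside the levels of these genes.

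The levels of the integrators spanned a wide range in these seedlings. Per exon length, *SVP*, which encodes a repressor, was the highest, with group means of 36.6 RPKM (reads per kilobase of exon, scaled to library size) in *bdrs*, 45.4 in *fpa*, 58.6 in *bdr1*, 44.2 in *bdr2*, 36.5 in *bdr3* and 46.3 in WT. *SOC1* came next in WT at 7.84 ± 3.02 RPKM (SD, n = 3). It was followed by *SPL9* at 1.58 ± 0.304, *SPL15* at 1.31 ± 0.479, *SPL3* at 0.804 ± 0.0675, *AGL24* at 0.766 ± 0.281 and *SPL4* at 0.314 ± 0.162 RPKM. In this order the WT libraries of *SVP* and *SOC1*, *SOC1* and *SPL9*, *SPL15* and *SPL3*, and *AGL24* and *SPL4* did not overlap, whereas those of *SPL9* and *SPL15* and those of *SPL3* and *AGL24* did. *FUL* (0.185 ± 0.161), *SPL5* (0.159 ± 0.102) and *TSF* (0.0462 ± 0.04) were at the edge of detection, with 0 to 9 reads per WT library. Of the 10 genes, 7 passed the filter on low counts and were tested.

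**Figure D1:**
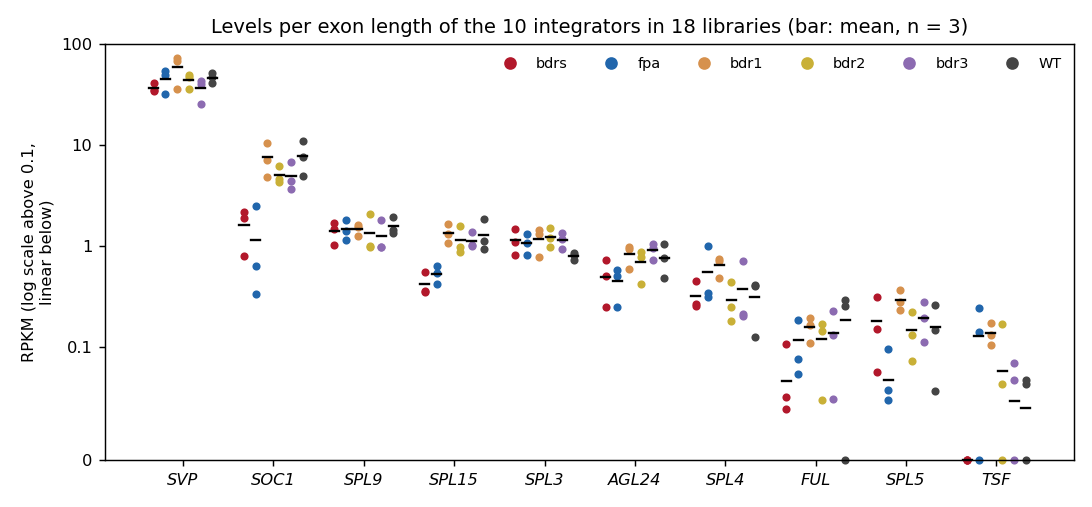
Level of each of the 10 integrators in each library, in RPKM (log scale above 0.1 and linear below), by genotype, with bars for the means of 3 libraries. *SVP* is the highest in every genotype, *SOC1* and *SPL15* are low in *bdrs* and *fpa*, and *FUL*, *SPL5* and *TSF* are near 0.

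Levels are given from here on as CPM, that is counts scaled by TMM-adjusted library size. *SOC1*, at chr2:18807505-18811125 on the minus strand, was much lower in both *bdrs* and *fpa*. The 3 *bdrs* libraries held 1.24, 2.97 and 3.41 CPM of *SOC1* (17, 63 and 58 reads) and the 3 *fpa* libraries held 0.526, 0.985 and 3.86 CPM (9, 16 and 39 reads), against 7.67, 11.8 and 17.0 CPM in WT (133, 215 and 303 reads). Every library of both mutants was thus below every WT library, a state that 9.29% of all tested genes shared in *bdrs* and 14.7% in *fpa*. *SOC1* fell 4.68-fold in *bdrs* (log2 fold change -2.23 ± 0.45, SE; adjusted p = 0.0049) and 7.65-fold in *fpa* (-2.93 ± 0.50; adjusted p = 0.00103). These adjusted p-values, like all others here, come from the quasi-likelihood test of edgeR with Benjamini-Hochberg adjustment over the 20143 genes tested, and genes under 0.05 are termed called.

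*SPL15* encodes an SPL protein that acts at the shoot apex and cooperates with *SOC1*, and it was the other integrator called lower in both mutants. The libraries held 0.511, 0.802 and 0.529 CPM in *bdrs* and 0.936, 0.616 and 0.792 CPM in *fpa*, against 1.38, 2.70 and 1.63 CPM in WT. The groups again did not overlap, although they rested on only 7 to 17 reads per library in *bdrs* and 8 to 16 in *fpa*, against 24 to 49 in WT. *SPL15* fell 3.01-fold in *bdrs* (-1.59 ± 0.33; adjusted p = 0.00615) and 2.43-fold in *fpa* (-1.28 ± 0.33; adjusted p = 0.0331). The second WT library set part of this difference. Without it the change was -1.26 in *bdrs* (adjusted p = 0.0528) and -0.94 in *fpa* (adjusted p = 0.237), and the call in *fpa* was also lost without any 1 of the *fpa* libraries, at adjusted p-values of 0.0636 (without *fpa* 1), 0.148 (without *fpa* 2) and 0.0808 (without *fpa* 3). It was lost too with only *fpa* and WT in the fit (-1.27, adjusted p = 0.0602) and without the libraries rich in ribosomal RNA (-1.29, adjusted p = 0.0821).

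*SOC1* and *SPL15* were therefore 2 of the 7 tested integrators called lower in *bdrs*, where 2.78% of all tested genes were called lower, and the same 2 of 7 in *fpa*, where 3.12% were. With the library number as a block, since the *fpa* and WT libraries of a number deviated together, 1362 genes were called in *fpa*, against 893 without it, and *SOC1* (-2.95, adjusted p = 1.81e-05) and *SPL15* (-1.27, adjusted p = 0.0345) were again the 2 integrators called. Both mutants were set against the same WT libraries. Of all tested genes, 166 (0.824%) were called lower in both. No integrator was called higher, in *bdrs*, where 1.89% of all tested genes were, or in *fpa*, where 1.31% were. The median log2 fold change of the 7 was -0.34 in *bdrs* and -0.13 in *fpa*, with 5 of 7 negative in each, against a median of 0.01 over all tested genes in each.

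**Figure D2:**
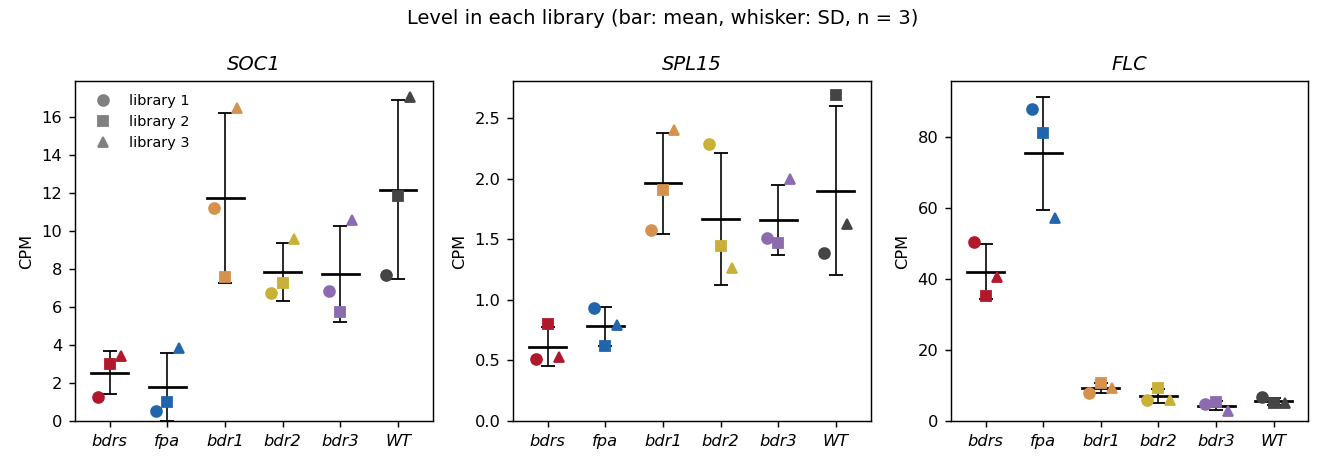
CPM of *SOC1*, *SPL15* and *FLC* in each library by genotype, with the mean and SD of 3 libraries (the lower whisker of *SOC1* in *fpa* stops at 0) and a symbol for each library number. *SOC1* and *SPL15* lie below all WT libraries in *bdrs* and *fpa*, and *FLC* lies above them.

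*FLC*, the repressor that the 10 genes were chosen around, moved the other way. It held 50.3, 35.1 and 40.6 CPM in *bdrs* and 87.7, 80.9 and 57.2 CPM in *fpa*, against 6.69, 5.06 and 4.95 CPM in WT. This was a 7.53-fold rise in *bdrs* (2.91 ± 0.24; adjusted p = 1.36e-07) and a 13.5-fold rise in *fpa* (3.76 ± 0.24; adjusted p = 7.96e-09). In the single mutants *FLC* was not called, at 9.24 ± 1.38 CPM in *bdr1*, 7.03 ± 1.92 in *bdr2* and 4.33 ± 1.3 in *bdr3* (SD, n = 3 each), against 5.57 ± 0.974 in WT. Every *bdr1* library (7.84 to 10.6 CPM) nevertheless lay above every WT library (4.95 to 6.69 CPM), as for 3.56% of tested genes. The *bdr2* and *bdr3* libraries overlapped those of WT. *FLC* was lower in *bdrs* than in *fpa* (-0.85 ± 0.21; adjusted p = 0.0114), and this call was lost without *bdrs* 2 (-0.74; adjusted p = 0.0742). In the annotation *FLC* is overlapped on the other strand by a noncoding transcript over 68.1% of its exon bases.

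In the single mutants neither *SOC1* nor *SPL15* was called. *SOC1* held 11.2, 7.56 and 16.5 CPM in *bdr1*, 6.72, 7.24 and 9.57 CPM in *bdr2*, and 6.85, 5.75 and 10.6 CPM in *bdr3*, all of which overlapped the WT range. Its log2 fold change was -0.07 in *bdr1* (95% interval -0.92 to 0.78), -0.63 in *bdr2* (-1.50 to 0.24) and -0.65 in *bdr3* (-1.52 to 0.21). *SPL15* averaged 1.96 ± 0.416 CPM in *bdr1*, 1.67 ± 0.545 in *bdr2* and 1.66 ± 0.292 in *bdr3* (SD, n = 3 each), against 1.90 ± 0.697 in WT, and its log2 fold changes lay between -0.21 and 0.02. None of the 7 tested integrators was called in any single mutant by edgeR, where 0.0248% (*bdr1*), 0.0397% (*bdr2*) and 0.0199% (*bdr3*) of all genes were called, and DESeq2 called none of them either. At an unadjusted p under 0.05 the count was 0 of 21 tests.

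The change in *bdrs* can be set against the sum of the 3 single changes, a test of whether the loss of all 3 genes exceeds what the single losses add up to on the log2 scale. For *SOC1* the difference from the sum was -0.88 ± 0.85 (95% interval -2.65 to 0.90; adjusted p = 0.984) and for *SPL15* it was -1.20 ± 0.61 (-2.48 to 0.08; adjusted p = 0.908). Neither interval excluded 0, nor did it exclude a large departure. No tested integrator was called here, where 0.477% of all genes were called, with 0 of 7 at an unadjusted p under 0.05.

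*bdrs* was also compared with *fpa* directly. *SOC1* was higher in *bdrs* by 0.71 ± 0.55 on the log2 scale (95% interval -0.44 to 1.85; adjusted p = 0.374), and *SPL15* differed by -0.31 ± 0.39 (-1.12 to 0.49; adjusted p = 0.593). For *SOC1* the third *fpa* library decided this outcome, since it held 3.86 CPM and the other 2 held 0.526 and 0.985 CPM. Without *fpa* 3 the difference was 1.77 (adjusted p = 0.0443). Without the 3 libraries richest in ribosomal RNA, of which *fpa* 3 is one, it was 2.07 (adjusted p = 0.00797). No tested integrator was called between *bdrs* and *fpa* with all libraries, although 19.9% of all genes were, and 0 of 7 reached an unadjusted p under 0.05.

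**Figure D3:**
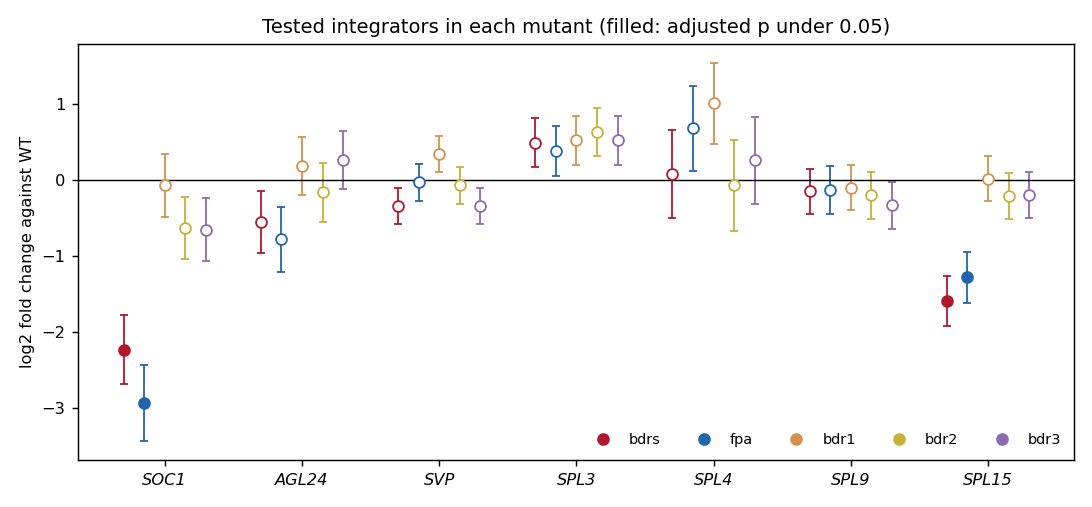
Log2 fold change against WT (± SE) of the 7 tested integrators in each mutant, with filled symbols for adjusted p under 0.05. The filled symbols are those of *SOC1* (-2.23 and -2.93) and *SPL15* (-1.59 and -1.28) in *bdrs* and *fpa*.

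The library number moved with the level of *SOC1*. In all 6 genotypes the library numbered 3 held the most *SOC1*, a pattern shared by *SPL9* and by 434 tested genes (2.15%). Within each number *SOC1* was still lower in both mutants, 6.19-, 3.98- and 5-fold in *bdrs* for numbers 1, 2 and 3, and 14.6-, 12- and 4.41-fold in *fpa*. For *SPL15* these values were 2.71-, 3.36- and 3.08-fold in *bdrs* and 1.48-, 4.38- and 2.06-fold in *fpa*. *SOC1* was called in *bdrs* and in *fpa* under every alternative listed in the closing part, including those without the libraries richest in ribosomal RNA (*bdrs* 1, *fpa* 3 and *bdr1* 3, with 1.01% to 1.78% of counts), where its change was -1.94 in *bdrs* and -4.01 in *fpa*.

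The other MADS-box integrators were not called. *SVP* held 60.8, 62.6 and 73.4 CPM in *bdrs* and 58.0, 89.0 and 97.0 CPM in *fpa*, against 73.1, 83.9 and 91.6 CPM in WT. All groups overlapped, and its log2 fold change was -0.34 in *bdrs* (95% interval -0.85 to 0.17) and -0.03 in *fpa* (-0.54 to 0.48), so a change of the size of that of *SOC1* lies outside both intervals. *AGL24* held 0.292, 0.849 and 0.588 CPM in *bdrs* and 0.292, 0.677 and 0.594 CPM in *fpa*, against 1.21, 0.880 and 0.562 CPM in WT. Its values were -0.55 ± 0.41 in *bdrs* and -0.78 ± 0.43 in *fpa*, on 4 to 21 reads per library of these groups, with intervals of -1.39 to 0.30 and -1.69 to 0.12. *FUL* held 0.0588 to 0.142 CPM in *bdrs* (5 reads in all) and 0.099 to 0.246 CPM in *fpa* (7 reads), against 0 to 0.385 CPM in WT (13 reads). The exact two-sided permutation p was 0.4 in *bdrs* and 0.8 in *fpa*, but 3 against 3 libraries cannot go below 0.1 at any depth. Fitted without the filter on low counts, *FUL* stood at -1.29 in *bdrs* (adjusted p = 0.576) and -0.58 in *fpa* (adjusted p = 0.74). On so few reads neither value shows that *FUL* was unchanged.

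*TSF* gave 0 reads in the 3 *bdrs* libraries and 4 in *fpa*, against 2 in WT. The count of 0 allows up to 0.142 to 0.219 CPM in each *bdrs* library (3 reads, counting error only), which covers the highest WT value of 0.0577 CPM. The exact permutation p was 0.4 in *bdrs* and 0.5 in *fpa*. In *bdr1* the 6 reads of *TSF* put every library (0.0858 to 0.143 CPM) above those of WT, as for 3.56% of tested genes. Its permutation p there was 0.1, the smallest possible, and without the filter on low counts edgeR gave 1.46 (adjusted p = 0.877). The *bdr2* and *bdr3* libraries of *TSF* (3 and 2 reads) overlapped those of WT. *FT* itself gave 6 reads in *bdrs* and 2 in *fpa*, against 7 in WT, and was not tested.

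Among the *SPL* genes with a miR156 site, 1 of the 4 tested integrators was called, *SPL15*. *SPL9*, which shares the site of *SPL15* base for base and overlaps it in function, held 1.82, 2.64 and 3.06 CPM in *bdrs* and 2.05, 2.52 and 3.27 CPM in *fpa*, against 2.42, 2.59 and 3.43 CPM in WT. The groups overlapped, and the log2 fold change was -0.15 in *bdrs* (95% interval -0.79 to 0.48) and -0.13 in *fpa* (-0.78 to 0.52). *SPL3*, a small SPL protein gene that acts in the floral transition, had 1.10, 0.802 and 1.47 CPM in *bdrs* and 1.05, 0.8 and 1.29 CPM in *fpa*, against 0.808, 0.715 and 0.844 CPM in WT. Its log2 fold changes were 0.49 ± 0.32 in *bdrs* and 0.38 ± 0.33 in *fpa*, and lay between 0.52 and 0.63 in the single mutants. None was called, and in *bdr2* and *bdr3* the libraries of *SPL3* were all above those of WT, as they were for 2.2% and 4.34% of all genes.

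*SPL4* and *SPL5*, close relatives of *SPL3*, were scarce. *SPL4* had 0.365, 0.614 and 0.353 CPM in *bdrs* and 0.468, 0.431 and 1.39 CPM in *fpa*, against 0.173, 0.550 and 0.563 CPM in WT, with log2 fold changes of 0.08 ± 0.58 and 0.68 ± 0.56. In *bdr1* its 3 libraries (0.670, 0.979 and 1.03 CPM) lay above those of WT, at 1.01 ± 0.53 (adjusted p = 0.777), as did 3.56% of all genes. *SPL5* was not tested and gave 18 reads in *bdrs*, 6 in *fpa*, 27 in *bdr1*, 13 in *bdr2* and 18 in *bdr3*, against 16 in WT (exact permutation p of 0.2 or above in each mutant).

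**Figure D4:**
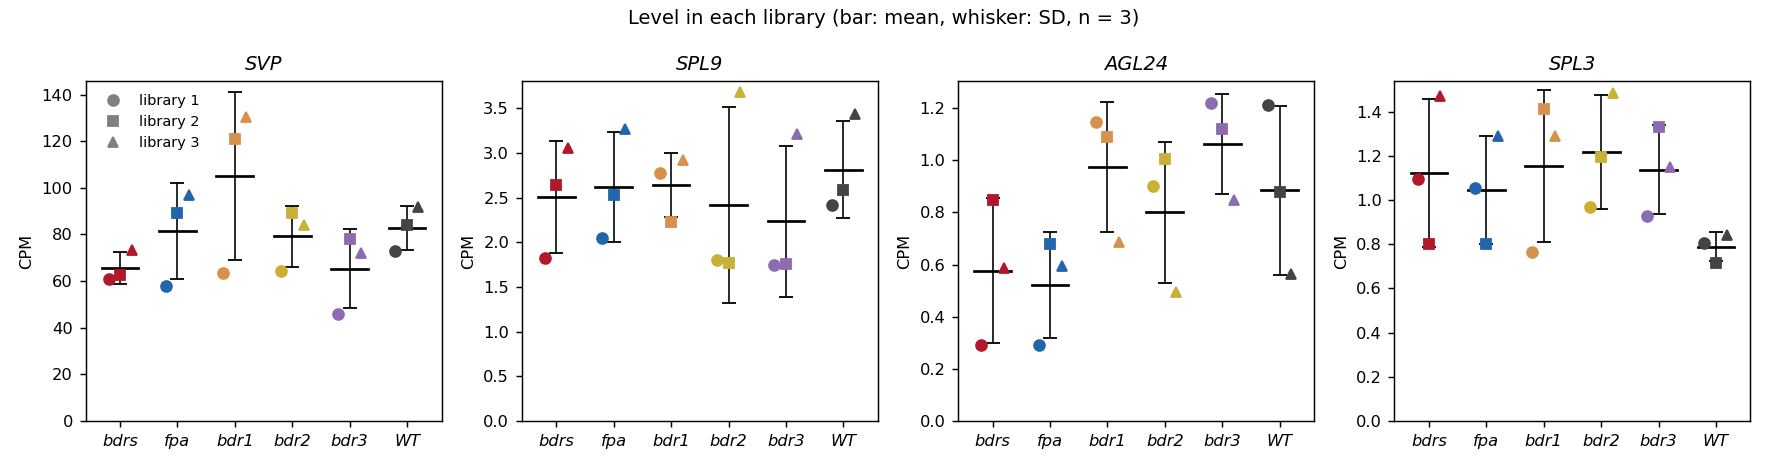
CPM of *SVP*, *SPL9*, *AGL24* and *SPL3* in each library by genotype, with the mean and SD of 3 libraries and a symbol for each library number. The *bdrs* and *fpa* libraries overlap those of WT for each of the 4 genes, and the library numbered 3 is the highest for *SPL9* in all 6 genotypes.

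The wider SPL family was read in the same fit. Of the other 6 *SPL* genes listed with a miR156 site, 4 were tested (*SPL2*, *SPL6*, *SPL10* and *SPL11*) and none was called in *bdrs* (median log2 fold change -0.07, range -0.14 to 0.09) or in *fpa* (-0.25, range -0.59 to 0.36). *SPL13A* and *SPL13B* are near-identical copies, and since only uniquely aligned reads were kept their count of 0 in all libraries says nothing of their expression. All 6 carried the same site as *SPL9* and *SPL15*. Of the 6 *SPL* genes with no site within 4 mismatches, none was called in *bdrs* (-0.25 to 0.71) or in *fpa* (-0.63 to -0.21). *SPL15* thus had the lowest value among the 14 tested *SPL* genes in both mutants. Of the 8 miR156 precursor genes listed (*MIR156A* to *MIR156H*), 3 were tested and none was called (-0.75 to 0.38 in *bdrs* and -0.84 to -0.07 in *fpa*). *MIR156C*, which had the most reads of them, averaged 11.8 CPM in *bdrs* and 11.6 CPM in *fpa*, against 12 CPM in WT. These libraries were made from mRNA and count precursor transcripts, not the mature microRNA. The related genes *MIR157a* to *MIR157d* were not read.

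**Figure D5:**
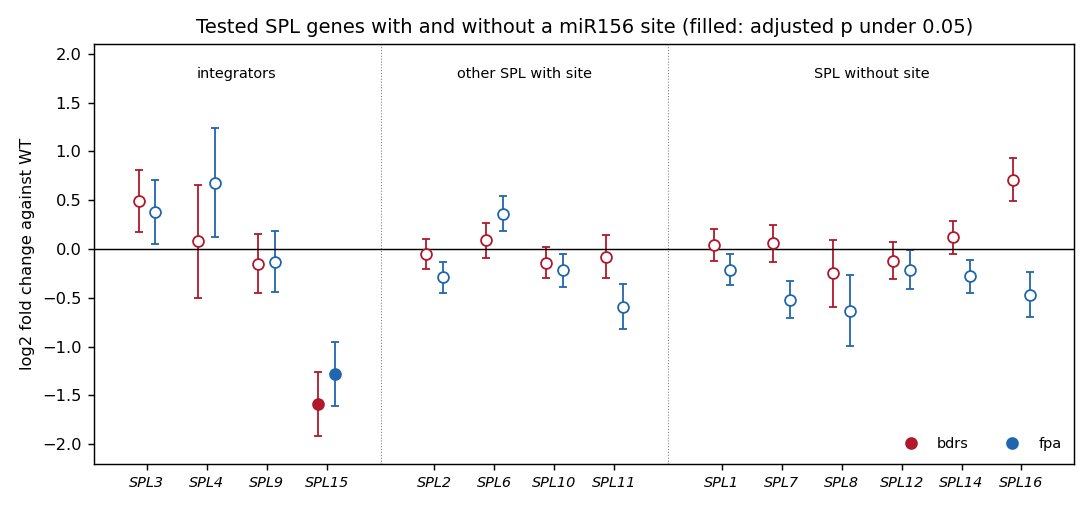
Log2 fold change against WT (± SE) of the 14 tested *SPL* genes in *bdrs* and *fpa*, grouped as integrators, other genes with a miR156 site and genes without one, with filled symbols for adjusted p under 0.05. The filled symbols are those of *SPL15*, at -1.59 in *bdrs* and -1.28 in *fpa*.

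Of the 5 close relatives of *SOC1* that were listed, 1 passed the filter on low counts. *AGL42*, also known as FOREVER YOUNG FLOWER, promotes flowering at the shoot apex and held 0, 0.0472 and 0.176 CPM in *bdrs* (0, 1 and 3 reads) and 1.11, 0.616 and 0.297 CPM in *fpa* (19, 10 and 3 reads), against 0.461, 0.385 and 0.787 CPM in WT (8, 7 and 14 reads). All *bdrs* libraries were below all others of these groups, whereas *fpa* and WT overlapped. Against WT, 9.29% of all tested genes were below in this way in *bdrs*. The log2 fold change was -2.71 ± 0.72 in *bdrs* (adjusted p = 0.0346) and 0.39 ± 0.50 in *fpa* (adjusted p = 0.685), and *bdrs* was lower than *fpa* by -3.10 ± 0.71 (adjusted p = 0.00663). With 4 reads in *bdrs* the size of the fold depends on the prior count of the fit. The call against WT was lost in several alternatives, with adjusted p-values of 0.0559 without the libraries rich in ribosomal RNA, 0.0653 on library totals alone, 0.061 and 0.166 without WT 1 and WT 3, and 0.0728 and 0.198 without *bdrs* 1 and *bdrs* 2. The difference from *fpa* had an adjusted p of 0.0507 without *bdrs* 2.

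The promoters of *SOC1* and *AGL42* are shown because, of the 10 integrators and *AGL42*, these 2 genes had a CArG box of strict form within 1000 bases before the gene start. A CArG box, the DNA motif of MADS-box proteins, was searched as CC and GG around a run of A or T alone, a form that reads the same on both strands, and 7.21% of 27443 promoters of protein-coding genes held one. Boxes that depart from this form were not searched, so a gene without a match may still hold one. The 60 bases around each box are given with the box in capitals, 5′ to 3′ on the strand of the gene.

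*SOC1*, chr2:18811802-18811861, minus strand: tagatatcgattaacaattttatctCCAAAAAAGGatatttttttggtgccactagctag

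*AGL42*, chr5:24964023-24964082, plus strand: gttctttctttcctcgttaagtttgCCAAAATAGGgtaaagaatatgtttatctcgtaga

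The boxes began 711 bases before the start of *SOC1* and 598 bases before that of *AGL42*. *SPL15* had no match in this window. The motif GTAC, the core of SPL binding sites, occurred within 1000 bases of all 10 integrators, a common state, since 82.3% of all promoters held it.

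The other lists of flowering genes held few calls against WT. In the *FLC* clade, *FLC* was the 1 gene of 5 tested that was called in each of *bdrs* and *fpa*, and *MAF4* stood at 0.49 ± 0.33 in *bdrs* and 1.0 ± 0.32 in *fpa* (adjusted p = 0.542 and 0.0849). Of the photoperiod inputs 2 were tested, and *GI*, which acts upstream of the florigen genes, fell in *fpa* (17.7, 20.6 and 17.0 CPM, against 24.4, 36.9 and 32.3 CPM in WT; -0.76 ± 0.21, adjusted p = 0.0422) and stood at 0.13 in *bdrs*, where it was not called. The call of *GI* rested on single libraries, with adjusted p-values of 0.239 (-0.62) without WT 2 and 0.109 without WT 3, and of 0.118, 0.0785 and 0.133 without *fpa* 1, 2 and 3. None of the 8 repressors of the AP2 and TEM type was called in either mutant. Of the 6 florigen partners and relatives, 3 were tested and none was called. *MFT*, a relative of *FT*, stood at -0.75 in *bdrs* (95% interval -1.43 to -0.06, adjusted p = 0.276), with all libraries below those of WT, and at -0.56 in *fpa* (-1.25 to 0.13), where they overlapped. *FD*, the partner of the florigens at the shoot apex, stood at 0.52 in *bdrs* (-0.01 to 1.05, all libraries above WT) and at -0.49 in *fpa* (-1.07 to 0.10, all libraries below WT). All libraries lay below those of WT for 9.29% of all tested genes in *bdrs* and 14.7% in *fpa*. The shares with all libraries above WT in these mutants are not given here. The floral meristem identity genes *LFY*, *AP1* and *CAL* were too low to test, with 12, 2 and 1 reads in *bdrs* and 9, 0 and 0 in *fpa*, against 17, 1 and 0 in WT.

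Because whole seedlings were used, fewer cells of a type and less RNA per cell cannot be told apart, so markers of the tissues were read beside the integrators. The summed level of the 5 shoot apex markers ranged from 80.5 to 98.1 CPM in *bdrs* and from 83.8 to 107 CPM in *fpa*, against 83.9 to 107 CPM in WT. Most of this sum was *CLV1* alone, which averaged 66 CPM in *bdrs*, 78.4 in *fpa* and 74.3 in WT. *WUS* and *CLV3* had 0 reads in *bdrs* and in WT, and 2 and 4 reads in *fpa*, so the sum says little of them. Of the 3 apex markers tested, 1 was called in *bdrs* and none in *fpa*. *STM*, which maintains the shoot meristem, was higher at 7.22, 7.17 and 7.17 CPM in *bdrs*, against 4.21, 4.79 and 4.44 CPM in WT (0.68 ± 0.18; adjusted p = 0.0276), in the direction opposite to *SOC1* and *SPL15*. In *fpa* *STM* held 5.79, 6.47 and 7.43 CPM, also above every WT library, but missed the threshold (0.54 ± 0.18, adjusted p = 0.094). The share of all genes above WT in this way is not given here. Without WT 1, 2 or 3 the adjusted p of *STM* in *bdrs* was 0.109, 0.0644 and 0.0939, and without *bdrs* 2 or 3 it was 0.103 and 0.0781. The 6 root markers summed to 92.8 to 102 CPM in *bdrs* and 75.4 to 82.2 CPM in *fpa*, against 80.2 to 102 CPM in WT. Most of this sum was *SCR* (means of 54, 36 and 54.2 CPM in *bdrs*, *fpa* and WT) and *SHR* (24.8, 23.4 and 23.2 CPM). *PLT1* and *PLT2* averaged 0.679 to 1.01 CPM in these groups, so the sum says little of them. The study reported short roots of the triple mutant. In *fpa* the endodermis regulator *SCR* was lower (-0.59 ± 0.16; adjusted p = 0.0403) and the root hair gene *EXPA7* higher (0.73 ± 0.17; adjusted p = 0.0179). *SCR* was no longer called without WT 2 (-0.46, adjusted p = 0.245), WT 3 (adjusted p = 0.0914) or any 1 of *fpa* 1 to 3 (adjusted p = 0.0757, 0.121 and 0.128), nor was *EXPA7* without WT 2 (adjusted p = 0.0979) or *fpa* 3 (adjusted p = 0.0817). The companion cell markers summed to 267 to 328 CPM in *bdrs* and 202 to 297 CPM in *fpa*, against 228 to 293 CPM in WT, and the green tissue markers to 38600 to 58000, 35600 to 70400 and 47800 to 57300 CPM in the same order. Their part in the levels of the integrators was not tested.

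Transcripts on the other strand overlap some of the integrators in the TAIR10.1 annotation, and reads of both strands may not be separable, since no source used here states the strand setting of the counting. The reads were counted on older TAIR10 gene models, in which these overlaps were not read. For *SPL15* the opposite gene AT3G57910 covers 100% of the exon bases. AT3G57910 averaged 2.02 ± 0.569 CPM in *bdrs* and 0.890 ± 0.438 CPM in *fpa*, against 1.27 ± 0.653 CPM in WT, and was not called (0.68 and -0.42). *SPL3* is covered over 97.3% by the noncoding AT2G33815 (12 reads in *bdrs* and 15 in *fpa*, against 22 in WT). *SPL5* is covered over 25.5% by AT3G15260, which rose in *fpa* (0.91 ± 0.16; adjusted p = 0.00177), while *SPL5* itself gave fewer reads there. The loci *MIR156i* and *MIR156j*, not counted here, lie opposite the miR156 sites of *SPL4* and *SPL9* and cover 14.4% and 3.82% of their exon bases. *SOC1*, *FUL*, *AGL24*, *SVP* and *TSF* had no such overlap.

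The study was concerned with genes that follow an upstream neighbour closely on the same strand. The upstream neighbour was searched only among genes of the count table, so a nearer annotated gene that was not counted would be missed. Of the 10 integrators, 4 had a tandem upstream neighbour in this sense, at 3534 bp for *SOC1* (AT2G45670), 4882 bp for *FUL* (*COB*), 3587 bp for *SPL4* (*DRP5A*) and 2676 bp for *SPL9* (AT2G42190). For *SPL15* and *SPL5* the search returned AT3G57910 and AT3G15260. These lie on the opposite strand and overlap the full spans of *SPL15* (1793 bp) and *SPL5* (1959 bp), so they are not upstream neighbours. The genes upstream of *SPL15* and *SPL5* were not read. The upstream neighbours of the remaining 4 integrators lay on the opposite strand. They were AT4G24550 for *AGL24* (log2 fold changes of -0.11 in *bdrs* and 0.01 in *fpa*), AT2G22530 for *SVP* (-0.10 and -0.45), *LSD1* for *TSF* (0.01 and -0.27) and *EMB3113* for *SPL3* (-0.14 and 0.28). AT2G45670, upstream of *SOC1*, averaged 109 ± 5.76 CPM in *bdrs* and 134 ± 7.11 CPM in *fpa*, against 130 ± 2.97 CPM in WT, with log2 fold changes of -0.26 (adjusted p = 0.238) and 0.04. None of the upstream neighbours that were read was called in *bdrs* or in *fpa*. The overlapping gene AT3G15260 was called in *fpa*, as given above.

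The genes whose level followed that of *SOC1* most closely over the 18 libraries were *TAPX*, a thylakoid ascorbate peroxidase gene (Pearson r of log2 CPM 0.93), AT3G47675 (0.90) and AT1G28140 (0.90), among 18383 tested genes with a mean of at least 1 CPM. The lowest values were those of *RPL3B*, a ribosomal protein gene (-0.90), AT3G49960 (-0.90) and *FLC* (-0.87). *SPL15* stood at 0.78 with *SOC1*. For *SPL15* the highest were AT4G29590 (0.90), *CYP72A13* (0.90) and AT1G26160 (0.89), the lowest were *AGC2-1* (-0.91), AT5G37690 (-0.85) and AT5G14330 (-0.85), and *FLC* stood at -0.83. These values describe points that share genotypes, library numbers and depth. In the 12 libraries without *bdrs* and *fpa*, *FLC* stood at -0.05 with *SOC1* and at -0.05 with *SPL15*, *SPL15* at 0.37 with *SOC1*, *TAPX* at 0.64 and AT3G49960 at -0.87. *SPL9* stood at 0.33 with *SOC1* over the 18 libraries and at 0.79 over these 12.

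The 18 libraries held 11566600 to 21084793 counts, and ribosomal RNA genes took 0.0531% to 1.78% of them. As a check of the labels, *BDR1* was lower in *bdrs* (-3.07) and *bdr1* (-2.01), *BDR2* in *bdrs* (-1.0) and *bdr2* (-1.22), and *FPA* in *fpa* (-0.77), all called. *BDR3* was at -0.14 in *bdrs* and -0.32 in *bdr3* and was not called, so counts over the whole gene do not check that insertion.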

How the data were processed

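The authors made strand-specific mRNA libraries, sequenced them on a NextSeq500 instrument, used STAR 2.5.2b for alignment and SAMtools 1.3.1 to keep uniquely aligned reads, and ran featureCounts on the TAIR10 genes (sources: the methods, and for versions the submitters' processing notes). The deposited table holds raw counts for 33602 genes, and all of its columns belonged to the 18 samples. The authors' normalized table, made with DESeq2 1.14.1, was not used here.

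Counts were tested with edgeR 4.0.16 in R 4.3.3 (quasi-likelihood F test, TMM, filterByExpr, 1 coefficient per genotype, all 18 libraries, 12 residual degrees of freedom, common biological coefficient of variation 17.3%). The filter left 20143 genes. Untested genes were compared by exact permutation tests of mean log2 CPM with 0.1 CPM added. RPKM used the exon lengths of TAIR10.1 (RefSeq), which is newer than the gene models counted. The integrators and gene lists were chosen with earlier results of these data known. The text names all integrators, *FLC*, the mutated genes, list members called against WT, the upstream neighbours that were read, overlapping genes, and the 3 genes most and least correlated with each called integrator. Other genes were named after their values were seen.

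The methods call triplicates of WT and *bdrs* biological, while the labels name no separate cultures, so p-values measure the spread between these libraries. No 2 libraries of a genotype agreed within sampling noise (lowest chi-square over degrees of freedom 13.1). In simulated counts for *bdrs* against WT over 19975 genes, the test called 8.96%, 61.2% and 97% of genes changed 1.5-, 2- and 4-fold, with 8 false calls. The changed genes were drawn from those above a floor of mean reads, and the simulated libraries shared no deviations by number. These rates therefore need not hold for the scarce integrators. The *fpa* and WT libraries of the same number deviated together from their group means (r = 0.25, 0.11 and 0.43), a pairing that comes from the data and not from the labels. Alternatives were DESeq2 1.42.0, other scaling, no filter, fewer libraries, only the genotypes compared, and a replicate block.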

Additional observations from a re-analysis of the deposited data

Results flagged for a closer look

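In a direct test *bdrs* and *fpa* differed at 8 of the 46 tested genes of the lists outside the 10 integrators (17.4%), a share below the 19.9% of all tested genes. The mutated genes were left out of this count, and each of the 8 was chosen after its values were seen. The log2 differences of *bdrs* from *fpa* were -0.85 for *FLC* (adjusted p = 0.0114, edgeR) and -0.60 for *FLM*, another MADS-box repressor of its clade (adjusted p = 0.0226). *AGL42* differed by -3.10 (adjusted p = 0.00663). *FD* averaged 2.5 ± 0.578 CPM in *bdrs*, against 1.27 ± 0.448 CPM in *fpa* (SD, n = 3 each), a difference of 1.01 (adjusted p = 0.0158). *GI* differed by 0.88 (adjusted p = 0.00764). *SPL16*, an SPL gene with no miR156 site, averaged 10.2 ± 2.89 CPM in *bdrs*, against 4.50 ± 0.822 CPM in *fpa*, a difference of 1.18 (adjusted p = 0.00211), and *SPL7*, a regulator of copper supply, differed by 0.58 (adjusted p = 0.0421). *SCR* differed by 0.59 (adjusted p = 0.017). Without *bdrs* 2 the call was kept by *SPL16* and lost by the other 7, at adjusted p-values of 0.0742 (*FLC*), 0.0948 (*FLM*), 0.0507 (*AGL42*), 0.0544 (*FD*), 0.0576 (*GI*), 0.192 (*SPL7*, 0.47) and 0.102 (*SCR*). Without *bdrs* 3 it was lost for *FLM* (0.0727), *FD* (0.0844), *SPL7* (0.142) and *SCR* (0.0548), without *fpa* 1 for *FD* (0.079), without *fpa* 2 for *SPL7* (0.0859) and *SCR* (0.057), and without *fpa* 3 for *FLM* (0.0887), *SPL7* (0.158) and *SCR* (0.0631), all as adjusted p.

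*FLC* in *bdrs* exceeded the sum of the changes of the single mutants by 2.21 on the log2 scale (adjusted p = 0.0406), where 0.477% of all tested genes departed from the sum. This call was lost without the libraries richest in ribosomal RNA (2.07, adjusted p = 0.0674), on library totals alone (2.33, adjusted p = 0.0778), and without any 1 of WT 1 to 3 (1.91, 2.34 and 2.37, adjusted p = 0.222, 0.0913 and 0.119), *bdrs* 1 or 3 (2.06 and 2.23, adjusted p = 0.061 and 0.0573), *bdr1* 1 or 3 (2.11 and 2.20, adjusted p = 0.0607 and 0.0716), *bdr2* 1 or 3 (2.11 and 2.08, adjusted p = 0.097 and 0.0955) or *bdr3* 3 (1.97, adjusted p = 0.0776). With 3 libraries per genotype, no test for single aberrant libraries was made.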

How the results depend on the processing

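The 4 called results (*SOC1* and *SPL15* in *bdrs* and in *fpa*) kept their sign in all 52 alternative values and lost the call in 7, all of them for *SPL15*. The 45 uncalled results of the tested integrators gave 642 alternative values, of which 41 changed sign and 2 became called, both for *SOC1* in *bdrs* against *fpa*. The count of integrators called in *fpa* was 1 instead of 2 with only the genotypes compared in the fit, and also when *bdrs* 1, *fpa* 3 and *bdr1* 3, rich in ribosomal RNA, were left out. In *bdrs* against *fpa* it was 1 instead of 0 without those 3 libraries. Leaving out 1 library at a time gave 1 to 2 in *bdrs*, 1 to 2 in *fpa* and 0 to 1 in *bdrs* against *fpa*. *SPL4* in *bdrs* against *fpa* was -0.60 with all libraries, 0.13 without the 3 libraries, 0.02 without *fpa* 3, and between -0.95 and 0.02 when 1 library was left out. With the replicate number as a block, the count of integrators called was 2 in *bdrs*, 2 in *fpa* and 0 elsewhere, the same counts as without it. It changed no call of an integrator. In the comparisons other than *fpa* with WT at least 1 of the 3 pairs of a number correlated at 0.1 or less, and the block moved the count of genes called by 1.5 times or less (1238 in *bdrs*, against 940 without it, and 5336 in *bdrs* against *fpa*, where 3999 were called without it). Over all mutants, 8 of 15 libraries correlated best with the WT library of their own number. *SPL4* and *AGL24* fell below the filter in some alternatives and have no value there. The scarcest integrators, *FUL*, *TSF* and *SPL5*, are limited by depth.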
